A study of Mus musculus with 6 samples.

Results

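The plasminogen activators Plau and Plat, the urokinase receptor Plaur and the serpins Serpine2, Serpinb2, Serpinf1 and Serpinh1 were followed in mouse glioma cells given SHP099. These 7 genes were taken by symbol from the 53346 symbols in the files, and each has 1 entry. Of the 7, 6 averaged 1 FPKM or more in some dose and were compared, among 12567 genes that did; Serpinb2 was listed at 0 in every file. The cells are described in the labels as Ink4a/Arf-/- astrocytes with PDGFRa and PDGF-A, grown with 0, 5 or 10 µM SHP099. SHP099 blocks SHP-2 allosterically; this tyrosine phosphatase, the product of Ptpn11, relays signals from receptor tyrosine kinases to RAS and ERK. All 3 groups share the genotype and the PDGF drive, and differ by the dose. The labels give neither the length of treatment nor the number of clones or cultures.

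Polyadenylated RNA gave 1 library per dose, run in lanes 6 and 7, and the 6 files are repeat runs of 3 libraries and n = 1 per dose. FPKM counts fragments relative to transcript length and to library depth, which allows genes to be set side by side. The lanes show the error of sequencing and hold no variation between cultures, and no test between doses is possible. To be called higher or lower, a gene had to change by 1.5-fold or more between the lane means of log2(FPKM + 1), with the same sign in all 4 pairs of a lane from each dose. Ranges after a fold are over those 4 lane pairs.

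Depth, worked out from the spacing of low FPKM values, was 30820000 to 47120000 fragments per lane, lowest at 10 µM. Ptpn11 was at 59.0, 58.4 and 57.7 FPKM at 0, 5 and 10 µM. Cdkn2a, the Ink4a/Arf gene, was listed at 535.7, 822.6 and 802.8 FPKM despite the labelled genotype, and from such a value the part of the gene it came from cannot be read. Of 8 astrocyte markers 2, Slc1a3 and Gja1, were measured; Aqp4 was at 0 in every lane and Gfap at 0.053 FPKM or less. The fibroblast collagens Col1a1 and Col1a2 were at 654.9 and 1231 FPKM without inhibitor. Other fibroblast markers were mixed. Dcn and Pdgfrb were at 28.1 and 39.7 FPKM without inhibitor, while Lum was at 0.572 FPKM or less and Thy1 at 0.152 FPKM or less in every lane. Of the defining astrocyte markers, Gfap and Aqp4 were thus absent or nearly so.

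Plasminogen activators are secreted serine proteases that cut plasminogen into plasmin, a protease that dissolves fibrin and degrades matrix proteins. Urokinase (uPA, from Plau) works bound to a lipid-anchored receptor at the cell surface (uPAR, from Plaur), and tissue-type activator (tPA, from Plat) is best known for dissolving clots and, in brain, for acting at synapses. Inhibitory serpins trap either protease in a covalent complex that endocytic receptors remove, while some family members, such as Serpinf1 and Serpinh1, do not inhibit proteases at all. In glioma the urokinase system is known for its part in invasion.

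Promoters are shown to let the start regions of the genes be compared in base composition and in short motifs, among them that of AP-1, a family of transcription factors. RefSeq promoters of build GRCm38.p6 were found for 5 of the 7 genes, and the 250 bases before the start are printed 5′ to 3′ for the 4 of these that were compared. The promoters of Plau and Plat, the genes called lower at 10 µM, are not among them, so no sequence shown belongs to a gene called lower. Plaur is at chr7:24462233-24462482, plus strand. Serpine2 is at chr1:79858666-79858915, minus strand. Serpinf1 is at chr11:75422624-75422873, minus strand. Serpinh1 is at chr7:99353240-99353489, minus strand. Capitals mark every match to 5 motifs searched on both strands, AP-1 (TGANTCA), the GC box (GGGCGG), the TATA box (TATAAA), a heat shock motif (GAANNTTC) and the E-box (CACGTG).
Plaur: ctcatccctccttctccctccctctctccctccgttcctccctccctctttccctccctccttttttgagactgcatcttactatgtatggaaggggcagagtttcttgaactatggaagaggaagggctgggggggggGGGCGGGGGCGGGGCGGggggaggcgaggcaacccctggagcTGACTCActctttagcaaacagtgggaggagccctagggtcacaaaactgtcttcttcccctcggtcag
Serpine2: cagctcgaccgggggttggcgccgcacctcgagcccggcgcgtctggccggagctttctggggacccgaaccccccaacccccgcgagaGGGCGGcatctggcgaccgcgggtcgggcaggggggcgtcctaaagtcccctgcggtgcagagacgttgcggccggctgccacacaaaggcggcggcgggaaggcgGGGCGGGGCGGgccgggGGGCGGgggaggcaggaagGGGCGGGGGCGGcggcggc
Serpinf1: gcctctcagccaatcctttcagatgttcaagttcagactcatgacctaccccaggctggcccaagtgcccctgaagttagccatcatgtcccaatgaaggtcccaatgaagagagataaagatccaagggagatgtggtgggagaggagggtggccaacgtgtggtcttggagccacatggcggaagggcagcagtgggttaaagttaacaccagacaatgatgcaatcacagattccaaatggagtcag
Serpinh1: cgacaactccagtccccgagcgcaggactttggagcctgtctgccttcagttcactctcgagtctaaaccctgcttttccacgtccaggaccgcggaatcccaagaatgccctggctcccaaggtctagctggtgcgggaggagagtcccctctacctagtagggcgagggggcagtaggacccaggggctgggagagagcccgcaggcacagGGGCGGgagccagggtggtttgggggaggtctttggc

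Plaur had 1 AP-1 match, TGACTCA, 69 to 63 bases before the start, and 3 GC boxes between 111 and 95 bases before it, the last of which share a base. AP-1 matches occur in 6.75% of 32851 RefSeq promoter windows of this length, and GC boxes in 32.7%. Serpine2 had 6 GC boxes and no AP-1 match, and its window is 78.8% G and C, against a median of 52.4% over all windows. Serpinh1 had 1 GC box and Serpinf1 no match to any of the 5 motifs. Serpinb2 has 2 overlapping windows, not shown, of 32.4% and 38.4% G and C, each with 1 AP-1 match (TGAATCA) and 1 TATA box. The TATA box lies 29 to 24 bases before the start in the first and 116 to 111 bases before it in the second. TATA boxes occur in 12.4% of windows, the heat shock motif in 6.69% and the E-box in 6.02%. A match is a run of letters and not evidence of binding.

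Without inhibitor the chaperone gene Serpinh1 was by far the most abundant of the 7, at 1253 and 1252 FPKM in lanes 6 and 7, which placed it at rank 67 of 12567 genes. Serpinf1 followed at 93.9 and 88.5 FPKM, Plat at 62.8 and 63.0 FPKM, Serpine2 at 28.5 and 27.2 FPKM, Plaur at 13.6 and 14.2 FPKM and lastly Plau, 9.58 and 9.85 FPKM. No neighbours in this order overlapped between lanes. At 5 and at 10 µM the order was the same except that Serpine2 stood above Plat, again with no overlap between lanes.

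**Figure D1:**
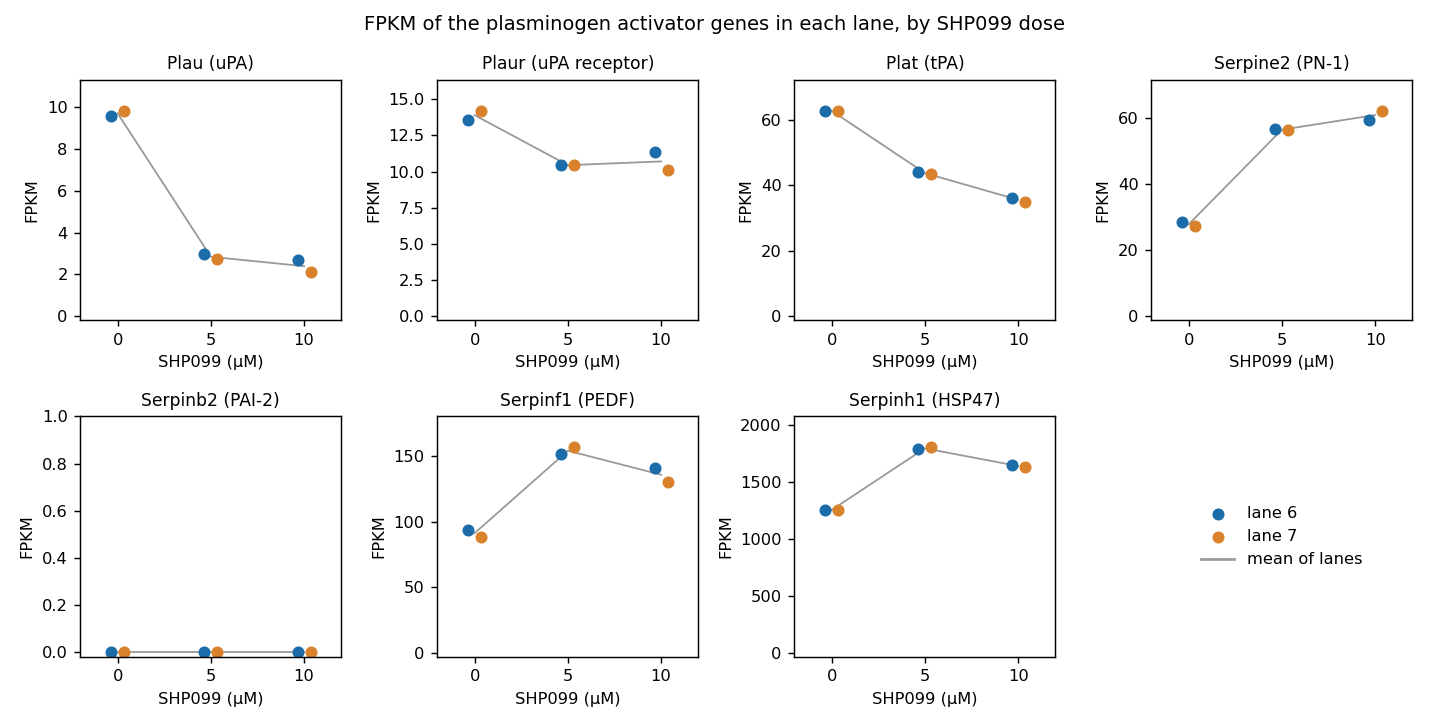
FPKM of the 7 genes (vertical axes, linear and from 0) at 0, 5 and 10 µM SHP099 (horizontal axes), 1 point per lane of 1 library per dose and a line through the lane means. Plau and Plat step down and Serpine2 steps up, most of it between 0 and 5 µM, and Serpinb2 lies at 0 throughout.

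Both activators were lower at 10 µM. Plau, the urokinase gene, had 9.58 and 9.85 FPKM at 0 µM, 2.95 and 2.72 FPKM at 5 µM and 2.68 and 2.10 FPKM at 10 µM. All 4 lanes with inhibitor were below both lanes without it, and the lanes of 5 and 10 µM lay close together. Plau fell by 1.67 on the log2 scale at 10 against 0 µM (lane pairs -1.81 to -1.53), a ratio of mean FPKM of 0.246, and by 1.48 at 5 against 0 µM (-1.54 to -1.42). Of the genes compared, 2.9% had a lower fold than Plau at 10 µM. The size depends on the pseudocount for a gene this low: with 5 FPKM in place of 1 the fold at 10 µM was -0.99, still called.

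On its longest annotated transcript, of 2342 bases, the Plau values correspond to 1919 fragments over both lanes at 0 µM, 456 at 5 µM and 309 at 10 µM. Exact 95% Poisson intervals, which cover counting error only, ran from 9.28 to 10.2 FPKM at 0 µM, 2.58 to 3.11 FPKM at 5 µM and 2.13 to 2.67 FPKM at 10 µM. The intervals at 5 and 10 µM overlapped, and Plau was not called between them (log2 fold -0.19, -0.35 to -0.02). For the other 5 genes compared the counting error was at most 2.93% per dose. Lanes could differ by more than counting error. Serpinf1 had 6925 and 6393 fragments in the lanes of 10 µM, which have the same fitted depth. Its counting error over both lanes was 0.866%, and both lanes lay outside its interval of 133.4 to 138.1 FPKM.

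Plat, the tissue-type activator, had 62.8 and 63.0 FPKM at 0 µM, 44.0 and 43.6 FPKM at 5 µM and 36.2 and 35.0 FPKM at 10 µM. The lanes of the 3 doses did not overlap, and each dose lay below the one before. Plat fell by 0.80 at 10 against 0 µM (-0.83 to -0.78). At 5 against 0 µM its fold was -0.51 (-0.52 to -0.50), short of the 1.5-fold step of 0.58, and at 10 against 5 µM it was -0.29 (-0.32 to -0.26). Of all genes compared, 6.1% had a lower fold than Plat between 5 and 10 µM, where the median gene was at -0.01. Plat made up most of the activator RNA in every lane: Plau amounted to 0.152 and 0.156 of Plat in untreated lanes, 0.067 and 0.062 with 5 µM and 0.074 and 0.060 with 10 µM.

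Plaur, the urokinase receptor, differed less. It had 13.6 and 14.2 FPKM at 0 µM, 10.4 and 10.5 FPKM at 5 µM and 11.3 and 10.1 FPKM at 10 µM. Both doses of inhibitor lay below the untreated lanes, and the lanes of 10 µM spanned those of 5 µM. Its folds, -0.35 at 10 against 0 µM (-0.46 to -0.24) and -0.38 at 5 against 0 µM (-0.41 to -0.35), did not reach 1.5-fold, and 30.0% of the genes compared were lower at 10 µM. With equal FPKM sums per file the fold at 10 µM was -0.15. The ratio of Plau to Plaur within a lane was 0.705 and 0.692 in untreated lanes, 0.283 and 0.260 with 5 µM and 0.236 and 0.208 with 10 µM.

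Serpine2, which encodes protease nexin-1, an inhibitor of thrombin and of both plasminogen activators made by glia, moved the other way. It had 28.5 and 27.2 FPKM at 0 µM, 56.7 and 56.5 FPKM at 5 µM and 59.7 and 62.4 FPKM at 10 µM. Every lane with inhibitor was above both untreated lanes, and those of 10 µM were above those of 5 µM. Serpine2 rose by 1.11 at 10 against 0 µM (1.04 to 1.17), a ratio of means of 2.19, and by 1.00 at 5 against 0 µM (0.97 to 1.03). At 10 µM 4.6% of the genes compared had a higher fold. Between 5 and 10 µM it was at 0.11 (0.07 to 0.14) and was not called.

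Serpinb2, which encodes plasminogen activator inhibitor 2, was listed at 0 in all 6 files. With no fragment over both lanes, the floor of 3 fragments corresponds to 0.0182 FPKM at 0 µM, 0.0223 FPKM at 5 µM and 0.0277 FPKM at 10 µM on its longest transcript of 1996 bases. The gene overlaps Serpinb10 on the same strand in the annotation, and Serpinb10 was at 0 as well.

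Serpinf1 and Serpinh1, serpins that do not inhibit proteases, were highest at 5 µM. Serpinf1 encodes pigment epithelium-derived factor, a secreted protein that restrains vessel growth and binds collagen. It had 93.9 and 88.5 FPKM at 0 µM, 151.4 and 156.7 FPKM at 5 µM and 141.1 and 130.3 FPKM at 10 µM, with no overlap between any doses. Serpinf1 rose by 0.75 at 5 against 0 µM (0.68 to 0.82). At 10 against 0 µM its fold of 0.57 (0.47 to 0.67) lay just under the 1.5-fold step and was not called, though it was at 0.61 without the lane 6 file of 0 µM, at 0.63 without the lane 7 file of 10 µM and at 0.60 to 0.79 under 3 other scalings, and called in each of these 5.

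Serpinh1 encodes HSP47, a chaperone that holds procollagen in the endoplasmic reticulum. It had 1253 and 1252 FPKM at 0 µM, 1784 and 1803 FPKM at 5 µM and 1643 and 1632 FPKM at 10 µM. The lanes of each dose agreed closely and no doses overlapped. Its fold was 0.39 at 10 against 0 µM (0.38 to 0.39) and 0.52 at 5 against 0 µM (0.51 to 0.53), neither called; with equal FPKM sums per file these were 0.60 and 0.70, both called. The summed level of its clients Col1a1 and Col1a2 was larger with inhibitor, and Serpinh1 amounted to 0.457 and 0.458 of it in the lanes of 10 µM and 0.473 and 0.477 in those of 5 µM, against 0.664 and 0.663 in untreated lanes.

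In all, 1 of the 6 genes was called higher and 2 lower at 10 against 0 µM, where 15.7% of all genes compared were called higher and 19.1% lower. At 5 against 0 µM 2 were higher and 1 lower, beside 14.1% and 16.8% of all genes. None was called at 10 against 5 µM, where 0.414% of all genes were higher and 1.35% lower. The median log2 fold of the 6 was 0.02, 0.07 and -0.16 in these comparisons, against -0.03, -0.03 and -0.01 over all genes. With a 2-fold rule Plau was lower (7.92% of all genes) and Serpine2 higher (5.83%) at 10 against 0 µM. At 5 against 0 µM Plau was lower (6.01%) and none higher (5.19%), with Serpine2 just short at 0.999. The comparisons of 10 and of 5 with 0 µM share the untreated library.

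**Figure D2:**
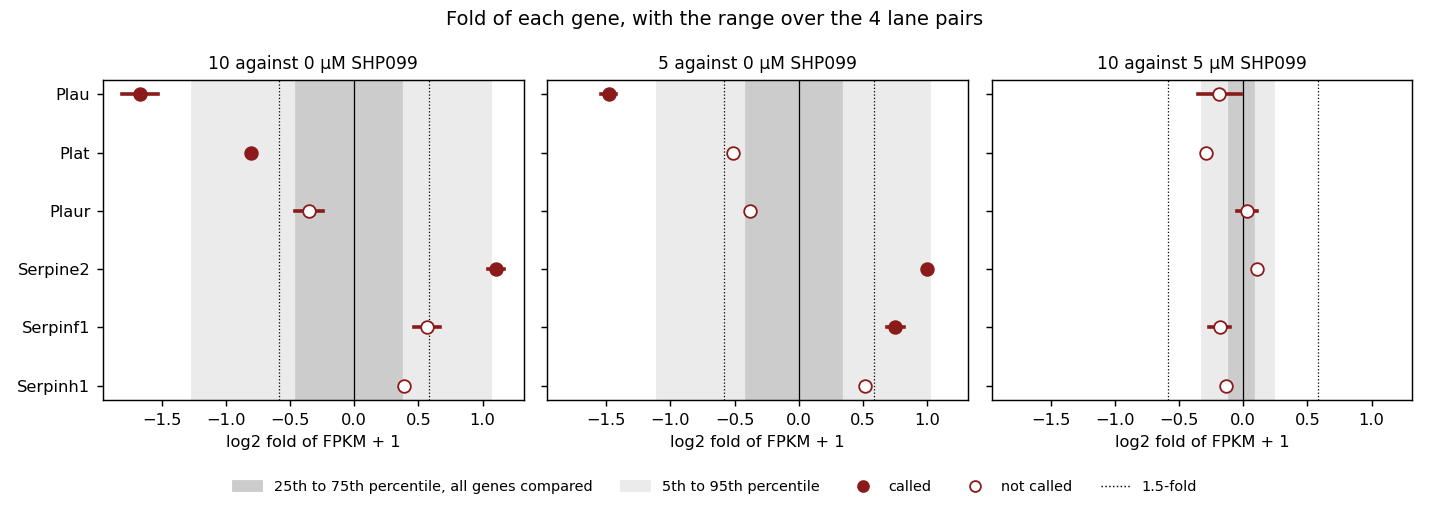
Log2 fold of FPKM + 1 (horizontal axes) of the 6 genes compared in 3 comparisons, with bars over the 4 lane pairs, filled points where called, dotted lines at 1.5-fold and shading for the spread of all 12567 genes. Plau at -1.67 and Serpine2 at 1.11 lie outside the 5th to 95th percentile of all genes at 10 against 0 µM, and no gene reaches 1.5-fold at 10 against 5 µM.

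A ratio of 2 genes within a lane does not depend on how files are scaled to each other. Plat stood at 0.607 and 0.561 of Serpine2 in the lanes of 10 µM and at 0.776 and 0.772 in those of 5 µM, against 2.21 and 2.32 in untreated lanes. The summed FPKM of Plau and Plat was 0.651 and 0.595 of that of Serpine2 with 10 µM and 0.829 and 0.820 with 5 µM, against 2.54 and 2.68 in untreated lanes. The RNA of the activators thus exceeded that of Serpine2 in both untreated lanes and was below it in all 4 lanes with inhibitor. These are RNA levels, and protein, secretion or protease activity was not measured.

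**Figure D3:**
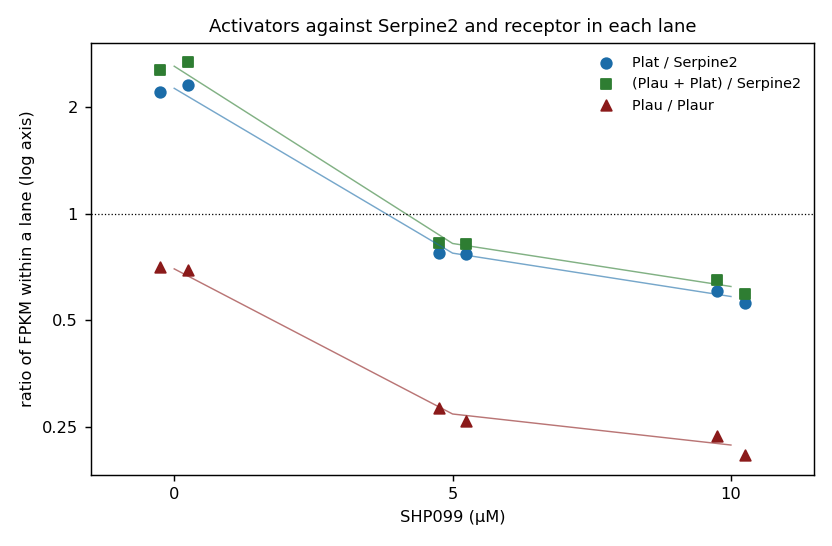
Ratio of FPKM within each lane (vertical axis, log scale) at 0, 5 and 10 µM SHP099, for Plat over Serpine2, for Plau plus Plat over Serpine2, and for Plau over Plaur. The first pair of ratios lies above 1 in both untreated lanes and between 0.561 and 0.829 in the 4 lanes with inhibitor.

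Other genes of the plasminogen system moved in both directions. Of 19 listed, 10 were measured, and at 10 against 0 µM 4 rose and 3 fell, beside 15.7% of all genes compared that were called higher and 19.1% lower. The list's median was 0.49, against -0.03 over all genes, and 0.15 over its 8 genes that averaged 5 FPKM or more in some dose. The 3 that fell are known to bind plasminogen at the cell surface: Anxa2 (-1.07) and S100a10 (-0.98), which together form a receptor for plasminogen and tPA, and Eno1 (-1.93), a glycolytic enzyme also found at the surface, whose near-identical genomic copies could share its reads. Plgrkt, a transmembrane plasminogen receptor, was at 0.50 and not called, though with equal FPKM sums per file it was at 0.71 and called higher. Vtn, vitronectin, a matrix ligand of uPAR, rose by 2.41 to a mean of 4.89 FPKM at 10 µM, against 0.106 FPKM at 0 µM. It passed the filter of 1 FPKM only through the doses with inhibitor.

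Mrc2, a collagen uptake receptor that associates with uPAR, rose by 1.60 to 274.0 FPKM at 10 µM, against 90.0 FPKM at 0 µM. Vldlr, an endocytic receptor of protease and serpin complexes, rose by 1.08, and Igf2r, the mannose 6-phosphate receptor, by 0.86. The main clearance receptor Lrp1 was at -0.21 and not called. Plg, plasminogen itself, was listed at 0 in every lane.

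Of 63 other serpin symbols, 7 were measured, and 2 rose and none fell, against 15.7% and 19.1% of all genes, with a median of 0.35. Serpind1, heparin cofactor II, rose by 1.48, to a mean of 1.91 FPKM at 10 µM, against 0.047 FPKM at 0 µM. Serpinb9, the granzyme B inhibitor, rose by 0.76. Serpinb6b was at 0.46 and Serpinb9b at 0.35, neither called. Serpind1, Serpinb6b and Serpinb9b averaged less than 1 FPKM at 0 µM and passed the filter only through the doses with inhibitor. The filter thus favoured positive folds among the genes measured, and the count and median are not free of it. The count, on 7 genes, is also too small to be read against the shares of all genes. Close paralogs such as Serpinb6a and Serpinb6b could share reads. With a pseudocount of 5 FPKM none of the 7 was called, as Serpind1 was then at 0.45 and Serpinb9 at 0.52.

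Among 17 genes of clotting receptors and their regulators, 7 were measured. Of these 5 rose and none fell, with a median of 0.75. Over all genes 15.7% rose and 19.1% fell, and counts on 7 genes are too small to be read against these shares. With a 2-fold rule 2 of the 7 were higher. Thbd, thrombomodulin, which turns thrombin into an activator of protein C, rose by 2.66, to a mean of 93.4 FPKM at 10 µM, against 13.9 FPKM at 0 µM. Pros1, the anticoagulant protein S, rose by 1.10, F3, tissue factor, which starts clotting, by 0.85, and F8, clotting factor VIII, by 0.75. With a pseudocount of 5 FPKM F8 was at 0.32 and not called. The protein C receptor gene Procr (-0.01) and the thrombin receptor gene F2r (0.10) were not called.

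All 20 genes of collagen folding and processing were measured, the set closest in function to Serpinh1. Of these 6 rose and none fell, against 15.7% and 19.1% of all genes, with a median of 0.44. With equal FPKM sums per file 12 were called higher, and the number over all genes was then 2947, against 1978 as deposited. Sparc, a collagen-binding matricellular protein, rose by 1.79 to 2728 FPKM at 10 µM, against 790.7 FPKM at 0 µM. P4ha3, a prolyl hydroxylase subunit, rose by 1.66, Fkbp14, a peptidyl-prolyl isomerase of the endoplasmic reticulum, by 1.39, and Plod1, a lysyl hydroxylase, by 0.91. Relatives of Plaur with the same Ly6 and uPAR fold had 6 of 16 members measured, 2 of them higher and 1 lower. Over all genes 15.7% were higher and 19.1% lower, and counts on 6 genes are too small to be read against these shares. Their median was -0.09, and 0.11 with equal sums. Cd59a, a complement inhibitor, rose by 1.63, from a mean of 0.568 FPKM at 0 µM, and passed the filter only through the doses with inhibitor. Lynx1, a modulator of nicotinic receptors, rose by 0.88, though with a pseudocount of 5 FPKM it was at 0.44 and lost its call. Ly6c1 fell by 0.71, and was not called with that pseudocount (-0.33) or with equal sums (-0.55). Ly6a was at -0.43.

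**Figure D4:**
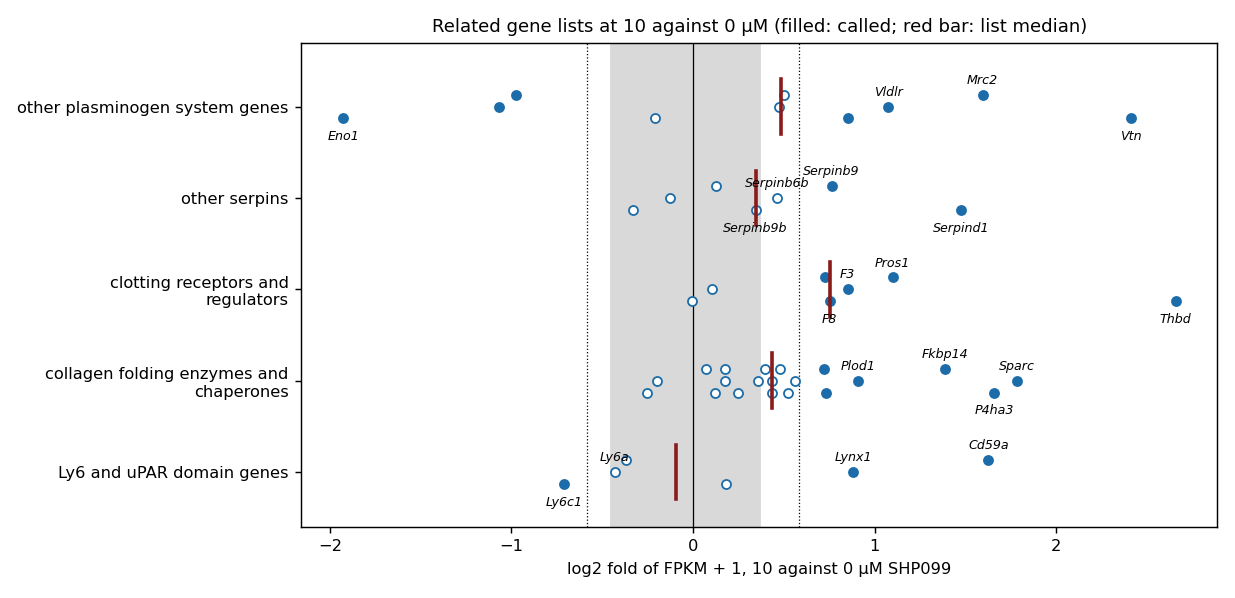
Log2 fold at 10 against 0 µM SHP099 (horizontal axis) of every measured gene in 5 related lists, filled where called, with a red bar at each list's median, dotted lines at 1.5-fold and shading between the 25th and 75th percentile of all genes compared. The clotting list has the highest median, 0.75 over only 7 measured genes, and the plasminogen list holds 4 called genes above 0 and 3 below.

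In a bulk library fewer cells of a type and less RNA per cell cannot be told apart. Endothelial cells, a known source of tPA, had none of 6 markers measured, 3 of them (Kdr, Cldn5 and Emcn) at 0 in every lane, and a summed level of 0.223 to 0.259 FPKM at 10 µM, 0.226 to 0.260 FPKM at 5 µM and 0.075 to 0.085 FPKM at 0 µM. Of 8 markers of microglia and macrophages, only Tmem119 was measured, C1qa was at 0 and each of the others was at 0.147 FPKM or less in every lane. The summed level, nearly all of it Tmem119, was 123.6 to 130.5 FPKM at 10 µM and 117.1 to 121.2 FPKM at 5 µM, against 63.6 to 64.4 FPKM at 0 µM. Fibroblast markers were higher with inhibitor, as Serpine2, Serpinf1 and Serpinh1 were, and their sum was highest at 5 µM, as were Serpinf1 and Serpinh1 but not Serpine2. Of 6 such markers 4 were measured and all 4 rose at 10 against 0 µM. The others were nearly absent, Lum at 0.572 FPKM or less and Thy1 at 0.152 FPKM or less in every lane. The summed level was 3691 to 3714 FPKM at 10 µM and 3901 to 3912 FPKM at 5 µM, against 1954 to 1955 FPKM at 0 µM. Most of it was Col1a1 and Col1a2, together 1886 FPKM in each untreated lane. The peak of the sum at 5 µM came mainly from Col1a1, at 1349 FPKM with 5 µM and 1174 FPKM with 10 µM. Pdgfrb was also higher at 5 µM (69.76 and 63.29 FPKM). Col1a2 (2428 and 2406 FPKM) and Dcn (58.75 and 58.72 FPKM) were nearly level between these doses. The part of fibroblasts in the values of Serpine2, Serpinf1 and Serpinh1 was not tested. Oligodendrocyte markers had 0 of 6 measured and neuronal markers 1 of 4, Tubb3.

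The genes nearest to each member were sought by the distance between their pairs of log2 folds, 5 and 10 against 0 µM, over the 3 libraries and among 9336 named genes with at least 5 FPKM in some dose. Nearest to Plau were Parpbp, a PARP1-binding protein (distance 0.012), Polr3g, an RNA polymerase III subunit (0.019), and Nav3, a neuron navigator (0.021), and 24 genes lay within 0.1. Nearest to Plat were Qtrt1, of queuosine transfer RNA modification, the zinc finger gene Zfp64 and Lsp1, with 98 genes within 0.1. Nearest to Serpine2 were Pcdhb15, a protocadherin, Kif3c, a kinesin, and Pcdhb17, with 84 within 0.1. Plaur had Slx4, Cdk19 and Tmem186 nearest and 432 genes within 0.1. Serpinf1 had Serhl, Pepd and Msrb1 with 50, and Serpinh1 had Smdt1, Parva and Churc1 with 157. With 3 libraries such nearness is common and only describes the folds.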

How the data were processed

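Each of the 6 deposited files holds FPKM as computed by the authors, 1 value per gene for 1 lane; per the submitters' processing notes Bowtie 0.12.2 and the genome build mm8 were used, while the quantification tool and any scaling between files are not given in the sources used here. FPKM were used as deposited, with entries of a symbol summed. The members, lists and rules were chosen with earlier results of these data known. Lanes of a dose were averaged as log2(FPKM + 1), genes averaging 1 FPKM or more in some dose were compared, and the 1.5-fold rule with 4 concordant lane pairs was applied to all of them. FPKM sums per file were 552800 to 643707, apart from 953134 and 567051 in the lanes of 5 µM, where the small nucleolar gene Snora62 made up the excess in lane 6. Mapped fragments were fitted so that FPKM of genes with 1 GENCODE M21 transcript gave whole numbers, with 240 bases taken from the length; 97.6% to 98.4% of values under 10 fragments came out within 0.1 of a whole number. That annotation is later than the build named, so it was used for lengths, names and strand, and promoter positions are RefSeq's on GRCm38.p6. Named genes are the 7 members, up to 4 of each list by size of fold at 10 against 0 µM, and the 3 nearest to each member, leaving out unnamed gene models and symbols stored as dates; the ratios, Anxa2, S100a10, Igf2r, Plgrkt, Lrp1, Plg, Procr and F2r were chosen after their values were seen. A gene of the lists is not reported here and is in none of their counts or medians. Alternatives were pseudocounts of 0.1 and 5 FPKM, no filter and 5 FPKM, a 2-fold rule, the highest entry of a symbol, each lane left out, scaling to the same sum without Snora62, to a median fold of 0, or by a trimmed mean (30% of ratios, 5% of levels). Python 3.11.15, numpy 2.4.6, pandas 2.3.3, scipy 1.17.1 and matplotlib 3.10.9 were used.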

Additional observations from a re-analysis of the deposited data

How the results depend on the processing

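Each fold of a member was recomputed under 15 alternatives, and all but 11 of the values kept their direction and their side of the 1.5-fold rule. Some of these values could not change. No member has more than 1 entry, every member compared passes each filter, and a lane of a dose outside a comparison does not enter it. The tally therefore overstates how far the folds were put to the test. With a 2-fold rule 1 member was lower at 10 against 0 µM and 0 were higher at 5 against 0 µM. Plat (-0.80), Serpine2 at 5 µM (0.999) and Serpinf1 at 5 µM (0.75) were no longer called. Serpine2 fell just short there, with a ratio of mean FPKM of 2.03. Members called higher at 10 against 0 µM numbered 2 under trimmed mean scaling (Serpinf1 0.61) and under a median of 0 (Serpinf1 0.60), and 3 with equal sums (Serpinf1 0.79, Serpinh1 0.60); at 5 against 0 µM Serpinh1 was then called too (0.70). Equal sums moved the median of all genes by 0.20 at 10 and 0.16 at 5 against 0 µM, and the share of higher among all calls there to 65.2% and 65.0%, against 45.2% and 45.7% as deposited. With 1 lane file left out the members called higher at 10 against 0 µM were 1 to 2, Serpinf1 ranged from 0.51 to 0.63, and Plaur at 10 against 5 µM from -0.047 to 0.107, where it was never called.

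The lists were recomputed as an addition made after seeing the data. With a 2-fold rule other serpins had 1 higher, clotting genes 2 higher, collagen folding genes 3 higher, and Ly6 genes 1 higher and 0 lower. With a pseudocount of 5 FPKM other serpins had 0 higher and Ly6 genes 1 higher and 0 lower; with 0.1 FPKM other serpins had 4 higher. At 5 FPKM or more other serpins had 1 higher and Ly6 genes 0 in either direction. With equal sums collagen folding genes had 12 higher and Ly6 genes 0 lower, and Plgrkt and Hgf of the plasminogen list were called too (6 higher); with a 2-fold rule S100a10 and Igf2r of that list were no longer called (3 higher, 2 lower). The median of other serpins was 0.12 with a pseudocount of 5 FPKM and 0.22 at 5 FPKM or more, where that of Ly6 genes was -0.37. No paired analysis was possible because each dose has 1 library and no test was made. With 1 library per dose, variation between cultures is not measured, and depth limits Plau most, at a counting error of 5.69% at 10 µM.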
